A study of Mus musculus with 26 samples.

Results

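Dbp (ENSMUSG00000059824, chromosome 7, 45354512 to 45359627 on the plus strand of GRCm39) encodes a D-box binding transcription factor whose mRNA is among the most strongly cycling messages of mammalian tissues. In mouse mesenteric arteries sequenced for a study of pannexin 1 (Panx1) it differed up to 126-fold among libraries of the same labelled group. The arteries with the highest and the lowest Dbp were therefore set side by side. Of 26 libraries, 9 were left aside by name, and these stand apart from the rest in their share of ribosomal RNA. The other 17 were ranked by Dbp in CPM, its count scaled to the total counts of the library. The highest 6 and the lowest 6 were taken, 12 libraries in all. The other 5 lay between them. Because the libraries were chosen by their Dbp counts, all values that set high against low are descriptions without a test. The 9 libraries left aside took no part in the choice and carry the only tests of a relation with Dbp.

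Every library held poly(A) RNA from mesenteric arteries, the resistance vessels that supply the gut, of male mice aged 8 weeks. The 8 labelled groups were wild type and global Panx1 knockout, with 3 libraries each, and the point mutants Y198F, S205A and Y308F, in which a phosphorylatable residue of pannexin 1 is replaced, each with its own controls. The mutants are labelled Y198F+/+, S205A+/+ and Y308F+/+, and their controls Y198F-/-, S205A-/- and Y308F-/-. The S205A line had 4 libraries in each group and the other lines 3. The design text names 3 vascular trees per genotype and littermate or wild-type controls. The hour at which tissue was taken is not given in the sources used here, nor is it stated whether a library is 1 animal, so p-values measure the spread between these libraries only.

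The circadian clock is a transcription loop that runs in nearly every cell, vascular smooth muscle and endothelium included. BMAL1 with CLOCK or NPAS2 activates genes through E-boxes, and the PER and CRY proteins made from such genes shut the activators off. The nuclear receptors REV-ERB (Nr1d1, Nr1d2) repress Bmal1 and Npas2 through ROR elements, where the ROR receptors activate. DBP, TEF and HLF activate genes through D-boxes, and NFIL3 represses there. In arteries the loop is known for its ties to blood pressure and vascular tone, which follow the time of day.

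The 6 libraries with high Dbp ran from 155 to 250.01 CPM. They were wild type 3 at 250.01, Panx1 knockout 1 at 229.6, Y308F mutant 1 at 219.5, Y308F control 3 at 207, Y308F control 2 at 191 and wild type 2 at 155 CPM. The 6 with low Dbp were Y198F control 2 at 11.96, S205A mutant 1 at 8.68, Y198F control 1 at 4.70, Y308F control 1 at 3.25, Y308F mutant 3 at 2.89 and Y308F mutant 2 at 1.74 CPM. Neither group was of 1 genotype. The Y308F line gave 3 libraries to each group, with mutants and controls in both. The wild-type and knockout line gave 3 high and no low library, while the Y198F line gave 2 low and the S205A line 1 low and neither gave a high one.

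The libraries next to the borders were S205A control 4 at 127 CPM, just below the high group, and Y198F control 3 at 12.1 CPM, just above the low one. The second of these differed little from Y198F control 2, so the lower border falls between near neighbours. Wild type 1 at 101.5, Panx1 knockout 3 at 78.5 and knockout 2 at 48.4 CPM filled the space between. In the Y308F line Dbp differed 126-fold among the 3 mutants and 63.8-fold among the 3 controls, and those were the widest spreads of the 8 groups.

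**Figure D1:**
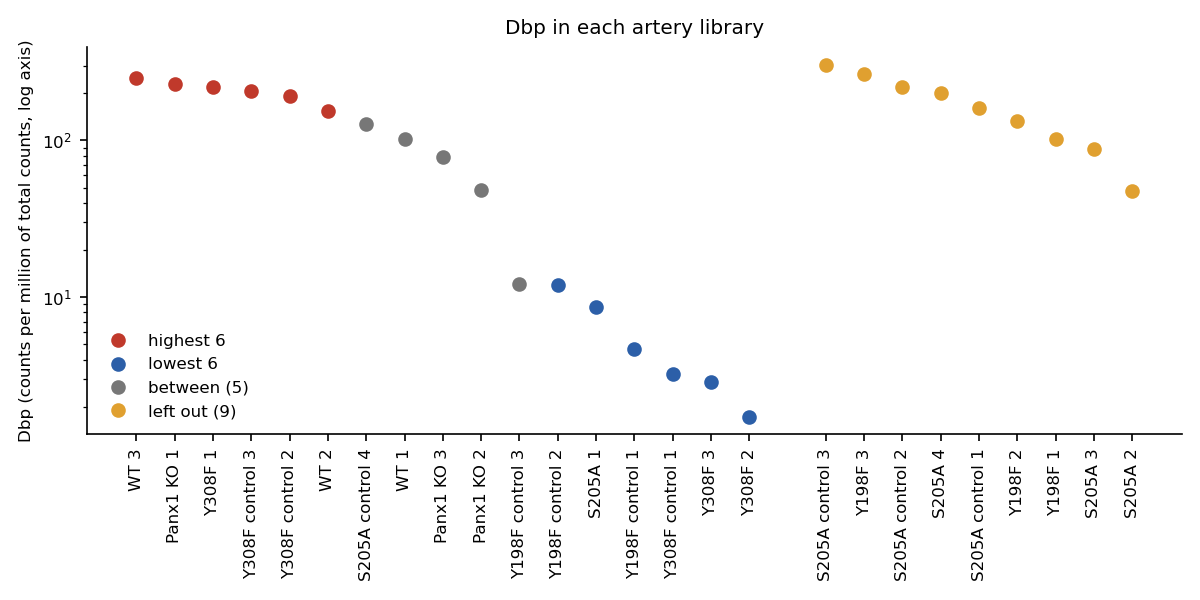
Dbp in each of the 26 libraries, in CPM of total counts on a log axis, 1 point per library: highest 6, lowest 6, the 5 between and the 9 left out. The left-out libraries run from 47.4 to 304 CPM, and none of them falls as low as the lowest 6.

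Total counts ran from 18.36 to 19.95 M (mega-counts) in the high group and from 17.3 to 23.62 M in the low one. Dbp itself rested on 41 to 4987 reads. Ribosomal RNA took 3.09 to 5.80% of the counts in the high group and 2.82 to 7.09% in the low one, and mitochondrial genes 4.54 to 7.42% and 3.79 to 6.72%. The 9 libraries left out held 0.0832 to 0.139% ribosomal RNA, well apart from both. Acta2 and Myh11, which define contractile smooth muscle, were at 7999 to 13184 and 8566 to 16126 CPM with high Dbp and at 7865 to 11578 and 9065 to 13436 CPM with low Dbp, so both markers of the labelled tissue were abundant in both groups. Tagln, another marker of that cell, was only at 34.2 to 50.1 and 25.2 to 63.2 CPM. Whether counting used the strand is not stated, so counts of genes whose exons overlap another gene are uncertain. This touches most of the genes below, many of them through a predicted gene. Known genes overlap, among others, Dbp (with Sphk2), Nr1d1 (with Thra), Per3 (with Uts2), Clock (with Tmem165), Tspan4 (with Chid1), Dll1 (with Fam120b), Por (with Tmem120a), Litaf (with Snn) and Srebf2 (with Shisa8), and Adamts4 too.

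Among 15807 genes with enough reads, Dbp left out, the 6 high libraries all lay above or all below the 6 low ones in 204 (1.29%). Of these, 100 (0.633%) were higher and 104 (0.658%) lower with high Dbp, and 48 (0.304%) and 53 (0.335%) of them did so by at least 1.5-fold. The median log2 fold change of all genes was 0.0027. Among genes with a mean log2 CPM of at least 1, clock genes made up 9 of the 10 largest folds of the higher genes and 3 of the 10 largest of the lower ones. In the text below, values per library are CPM on library sizes normalized over the 17 libraries with the TMM method. A log2 fold change is high over low from edgeR's fit of the 12 libraries. In whole tissue, fewer cells with a message and less message per cell cannot be told apart.

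All 10 clock repressors tested had groups without overlap, 9 higher with high Dbp and 1, Cry1, lower, against 0.633% and 0.658% of all genes. Their median log2 fold change was 2.29. Dbp is a textbook partner of these genes, and the count repeats the choice of libraries rather than adding to it.

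The Period genes encode the proteins that carry the negative feedback. Per3 was at 112, 132, 103, 76.6, 68.2 and 67.1 CPM in the high group, listed from the highest Dbp down, and at 19.8, 14.3, 12.96, 8.40, 12.8 and 12.3 CPM in the low group in the same order. Every high library was at least 3 times any low one, and the log2 fold change was 2.80. Per2 was at 106, 107, 87.9, 52.6, 38.2 and 84.97 CPM with high Dbp. In the low group it was at 17.5, 12.5, 12.01, 6.54, 26.05 and 22.2 CPM, a log2 fold change of 2.30. The 2 libraries with the least Dbp were thus the highest of the low group in Per2. Per1 ran from 58.1 to 184 CPM and from 18.5 to 40.7 CPM, a log2 fold change of 2.15. The high group split in Per1: the Y308F controls 2 and 3 were at 58.1 and 80.1 CPM and the other 4 at 155 CPM or more.

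The cryptochromes, partners of the PER proteins, went opposite ways. Cry1 was at 9.20 to 12.3 CPM with high Dbp and at 13.1, 17.05, 20.8, 18.2, 29.7 and 26.6 CPM with low Dbp, a log2 fold change of -1.002. The Y308F mutants 2 and 3 were the highest in Cry1 of all 17 libraries. Cry2 ran from 57.1 to 71.9 CPM and from 36.2 to 53.7 CPM, a log2 fold change of 0.54. Its gap was narrow, the smallest fold of the repressors.

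Nr1d1 and Nr1d2 encode REV-ERBα and REV-ERBβ. Nr1d1 was nearly level in the high group, at 304, 363, 305, 371, 359.6 and 305 CPM. In the low group it formed 2 steps: Y198F control 2, S205A mutant 1 and Y198F control 1 were at 105, 115 and 96.1 CPM, and Y308F control 1 and mutants 3 and 2 at 49.9, 21.6 and 23.4 CPM. The log2 fold change was 2.29. Nr1d2 put the low libraries in nearly the same order, from 74.8 CPM in S205A mutant 1 to 18.9 CPM in Y308F mutant 2, and was at 162 to 254 CPM with high Dbp (log2 fold change 2.29).

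Ciart, a repressor of the BMAL1 complex, had the largest fold of the clock genes after Dbp, 4.21 on the log2 scale. It was at 32.6, 22.7, 23.6, 16.04, 8.65 and 13.3 CPM against 0.409 to 1.63 CPM, the lowest value again in Y308F control 1. Bhlhe41 and Bhlhe40 encode DEC2 and DEC1, which compete for E-boxes. Bhlhe41 was at 24.5 to 52.8 CPM against 3.50 to 6.47 CPM (log2 fold change 2.93), and Bhlhe40 at 111 to 157 CPM against 56.8 to 84.8 CPM (1.04). The fold of Bhlhe41 was thus the larger, and for both genes the groups were apart.

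Tef and Hlf, the sister factors of Dbp, went with it. Tef was at 408, 420.4, 365, 331, 252 and 298 CPM with high Dbp and at 79.4, 66.4, 57.2, 39.4, 62.2 and 64.7 CPM with low Dbp (log2 fold change 2.49). Hlf was at 14.5 to 49.8 CPM against 1.63 to 6.74 CPM (2.96). The high group split in Hlf: wild type 3, knockout 1 and Y308F mutant 1 were at 49.8, 44.6 and 36.05 CPM and the other 3 at 17.7 CPM or less. Nfil3, the repressor at the same sites, went the other way: it was at 1.96, 1.53, 1.05, 1.90, 1.51 and 5.38 CPM with high Dbp and at 15.1 to 24.4 CPM with low Dbp (log2 fold change -3.15). Wild type 2, the library with the least Dbp of the high group, held the most Nfil3 in it.

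The positive arm of the loop was lower where Dbp was high, without overlap in 3 of 6 genes tested, where 0.658% of all genes were. Bmal1, the activator, was at 1.41, 2.64, 1.57, 4.71, 8.20 and 5.98 CPM with high Dbp and at 49.9, 57.4, 54.4, 65.2, 68.1 and 59.4 CPM with low Dbp, a log2 fold change of -3.85. Npas2, a partner of BMAL1, was at 1.25 to 6.39 CPM against 36.8 to 53.3 CPM (-3.71). Clock, the other partner, was at 58.3 to 83.3 CPM against 96.4 to 136 CPM (-0.73), a far smaller gap. The other 3 overlapped between the groups, Bmal2 with a log2 fold change of 0.0048 and Rora with -0.20 among them, and Rorb had too few reads to be tested.

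**Figure D2:**
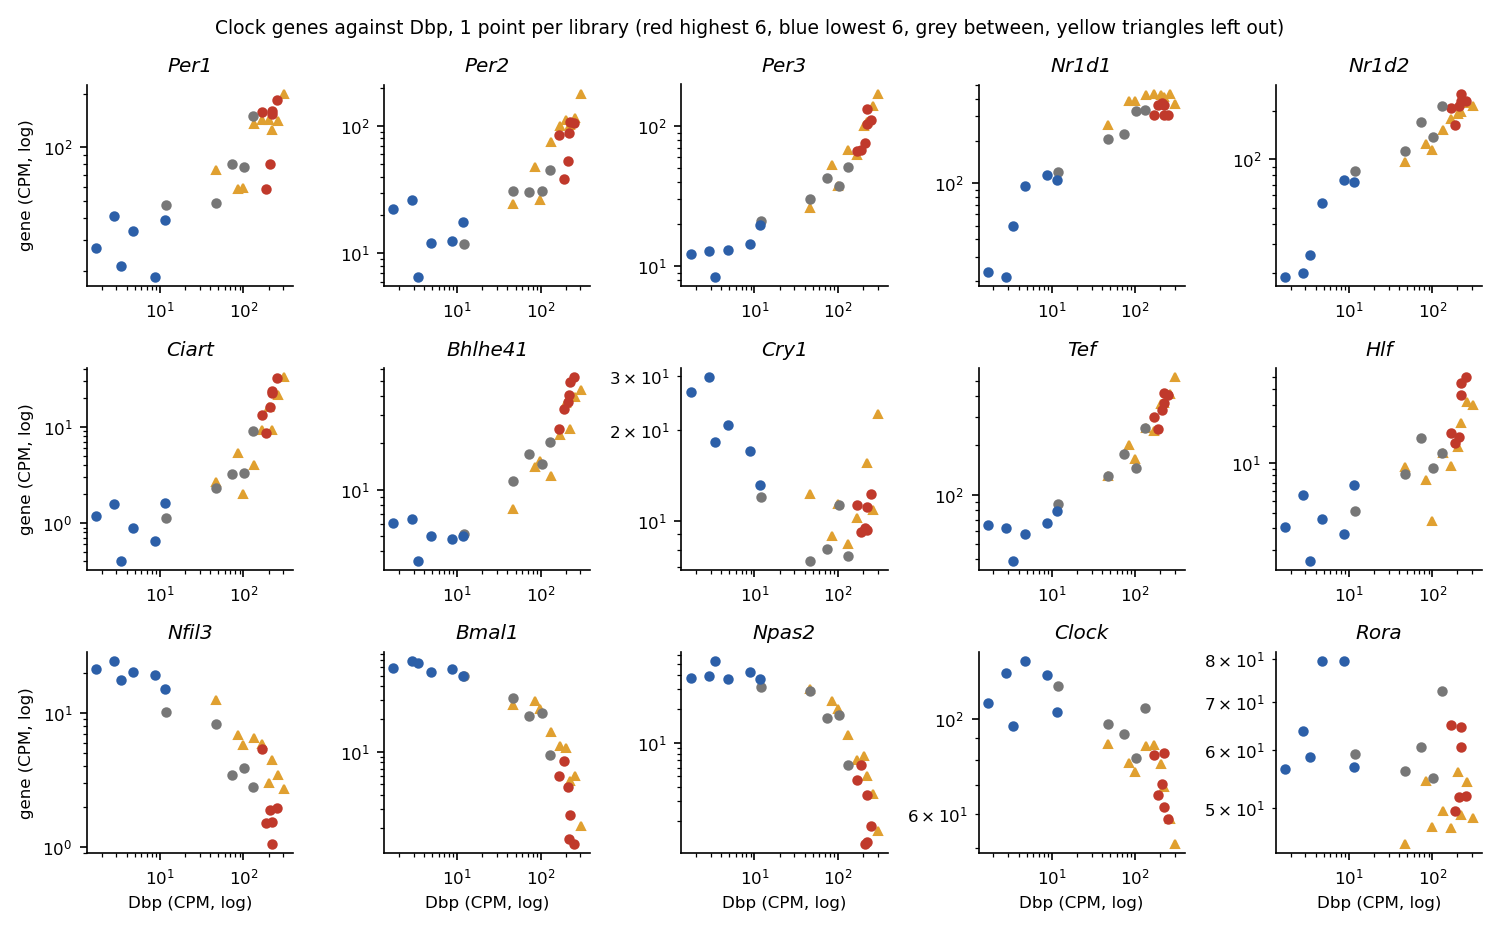
CPM of 15 clock genes against CPM of Dbp, both on log axes, 1 point per library: highest 6, lowest 6, the 5 between and, as triangles, the 9 left out. Bmal1, Npas2 and Nfil3 are lower at higher Dbp, and Per3 and Tef are higher. In the lowest 6 libraries Per2 does not follow the order of Dbp, while Cry1 is mostly higher where Dbp is lower.

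The 6 low libraries were not alike in the rest of the loop. Y308F mutants 2 and 3, from the same labelled group, had the least Dbp, Nr1d1 and Nr1d2 of the 17 libraries together with the most Cry1 (26.6 and 29.7 CPM) and, within the low group, the most Per2 (22.2 and 26.05 CPM). Y308F control 1 had nearly as little Dbp but the least Per2, Per3, Tef and Ciart of the 17, at 6.54, 8.40, 39.4 and 0.409 CPM, and the most Npas2, at 53.3 CPM. Y198F control 1, Y198F control 2 and S205A mutant 1 kept 96.1 to 115 CPM of Nr1d1. With 1 to 3 libraries of each kind these differences carry no replicate check.

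The promoters of the clock genes show which response elements lie close to their start sites. Windows from 250 bases before to 50 bases from the start on were read from GRCm39 at the GENCODE start of each gene's main transcript, on the gene's strand, and searched on both strands for an E-box (CACGTG), a D-box (TTATGTAA or TTACGTAA) and a ROR element (TAGGTCA or TGGGTCA). An E-box stood in 6 of 19 clock promoters and in 7.81% of 21770 promoters of protein-coding genes. The 6 genes were Bhlhe40, Bhlhe41, Ciart, Cry1, Per1 and Tef. A D-box stood in 2 of 19 (Per2 and Per3) and in 1.07% of all, and a ROR element in 1 of 19 (Dbp) and in 6.11% of all. The windows of Bmal1 and Npas2 thus held no ROR element. Sites outside the windows, at other start sites or with other letters were not searched. The ROR elements of the Dbp window lie in its upstream end, which is also the annotated end of Car11. The windows of 3 genes with an E-box are shown because those genes were higher with high Dbp, with the motif in capitals: Ciart (chr3:95789507-95789806, minus strand), whose window holds 3, Per1 (chr11:68989018-68989317, plus strand) and Tef (chr15:81695365-81695664, plus strand).
Ciart: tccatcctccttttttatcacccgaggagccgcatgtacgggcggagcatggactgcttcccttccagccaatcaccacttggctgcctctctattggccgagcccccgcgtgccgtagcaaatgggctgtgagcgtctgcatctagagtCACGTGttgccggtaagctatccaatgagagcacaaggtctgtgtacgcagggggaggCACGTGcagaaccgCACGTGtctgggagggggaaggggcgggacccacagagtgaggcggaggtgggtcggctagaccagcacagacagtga
Per1: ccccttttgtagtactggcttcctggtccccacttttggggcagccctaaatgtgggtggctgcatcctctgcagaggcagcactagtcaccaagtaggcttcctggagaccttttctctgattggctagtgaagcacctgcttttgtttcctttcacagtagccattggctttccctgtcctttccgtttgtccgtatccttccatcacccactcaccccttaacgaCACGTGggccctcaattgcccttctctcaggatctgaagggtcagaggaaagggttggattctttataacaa
Tef: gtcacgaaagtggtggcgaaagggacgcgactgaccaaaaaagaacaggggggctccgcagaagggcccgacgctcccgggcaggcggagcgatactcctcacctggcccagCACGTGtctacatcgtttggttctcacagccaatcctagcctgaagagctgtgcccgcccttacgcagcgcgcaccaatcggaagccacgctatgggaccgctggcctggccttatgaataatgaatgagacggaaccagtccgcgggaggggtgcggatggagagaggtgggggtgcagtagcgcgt

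Per3 (chr4:151129091-151129390, minus strand) and Per2 (chr1:91386997-91387296, minus strand) are the clock promoters with a D-box, the element that DBP, TEF, HLF and NFIL3 bind. It is shown in capitals. Per3 has 2 copies and Per2 has 1.
Per3: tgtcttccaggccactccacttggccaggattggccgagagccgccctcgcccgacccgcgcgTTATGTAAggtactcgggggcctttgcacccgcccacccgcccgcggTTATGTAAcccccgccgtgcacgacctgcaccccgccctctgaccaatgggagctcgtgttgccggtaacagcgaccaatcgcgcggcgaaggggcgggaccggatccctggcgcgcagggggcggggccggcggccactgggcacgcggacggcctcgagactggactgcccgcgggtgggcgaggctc
Per2: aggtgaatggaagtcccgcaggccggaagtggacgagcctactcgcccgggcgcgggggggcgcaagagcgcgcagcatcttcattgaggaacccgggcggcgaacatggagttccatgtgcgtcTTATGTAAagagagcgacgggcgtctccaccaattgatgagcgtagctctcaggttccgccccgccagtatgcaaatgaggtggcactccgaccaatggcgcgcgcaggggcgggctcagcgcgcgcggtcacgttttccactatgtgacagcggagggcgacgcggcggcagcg

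Cry1, with an E-box like Per1 and Tef, was the repressor that was lower with high Dbp, so a match of these letters did not go with one direction. A match is a description of the sequence, and no factor was measured at any of these places.

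The 9 libraries left aside gave the test. From the Y198F line they hold the 3 mutants, and from the S205A line 3 controls (1, 2 and 3) and 3 mutants (2, 3 and 4). Dbp ran 6.42-fold among them, from 47.4 CPM in S205A mutant 2 to 304 CPM in S205A control 3, so they cover the upper part of the range only. The slope of each gene on log2 Dbp, with the labelled group as a term, was tested with edgeR's quasi-likelihood method over 16725 genes. No gene passed an adjusted p of 0.05 (0 of 16725, 0.0%). At an unadjusted p under 0.05 there were 543 genes (3.25%), of which 266 (1.59%) had a slope above 0 and 277 (1.66%) below 0. These shares moved with single libraries left out. They were 0.939% above and 0.945% below 0 without S205A mutant 2, and 2.95% and 2.74% without S205A control 1. With other tools the count past the adjusted threshold was 29 with DESeq2 and 0 with limma voom.

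Clock genes nevertheless held the smallest adjusted values. Per3 was at 171, 140.4, 107, 99.9, 62.4, 67.3, 37.5, 52.8 and 26.2 CPM from the highest Dbp down, close to the order of Dbp. Its slope was 1.10 (SE 0.12) in log2 units per doubling of Dbp, with an edgeR adjusted p of 0.0718. Bhlhe41 (1.09, SE 0.13) and Tef (0.81, SE 0.098) had the same edgeR adjusted p of 0.0718. Ciart had the steepest slope of the clock genes, 1.72 (SE 0.25, edgeR adjusted p 0.159), and Per2 had 1.11 (SE 0.15, edgeR adjusted p 0.147). Nr1d2 had 0.51 (SE 0.073) with that same adjusted p. By their unadjusted edgeR p, 6 of 10 repressors passed 0.05 with a slope above 0, where 1.59% of all genes did. Of Tef, Hlf and Nfil3, 2 passed above 0 and 1 below, but the count above 0 was 1 when any library other than S205A mutant 2 or S205A mutant 4 was left out. In the positive arm 2 of 6, Bmal1 and Npas2, passed below 0, where 1.66% of all genes did.

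Npas2 was at 1.63, 3.49, 5.03, 7.64, 6.99, 11.8, 19.99, 23.6 and 30.2 CPM in the same order of libraries. Its slope was -1.33 (SE 0.23, edgeR adjusted p 0.345). Bmal1 had a slope of -1.11 (SE 0.28, edgeR adjusted p 0.9998) and Nfil3 of -0.90 (SE 0.18, edgeR adjusted p 0.588). Nr1d1 was close to level there, between 261 and 435 CPM, with a slope of 0.19 (SE 0.10), although Dbp differed 6.42-fold. Cry1, lower with high Dbp among the 12 libraries, had a slope of 0.03 (SE 0.19) in the 9, where its highest value, 22.5 CPM, was in the library with the most Dbp. The direction of that slope turned when S205A control 3, S205A control 1 or Y198F mutant 3 was left out, down to -0.07.

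**Figure D3:**
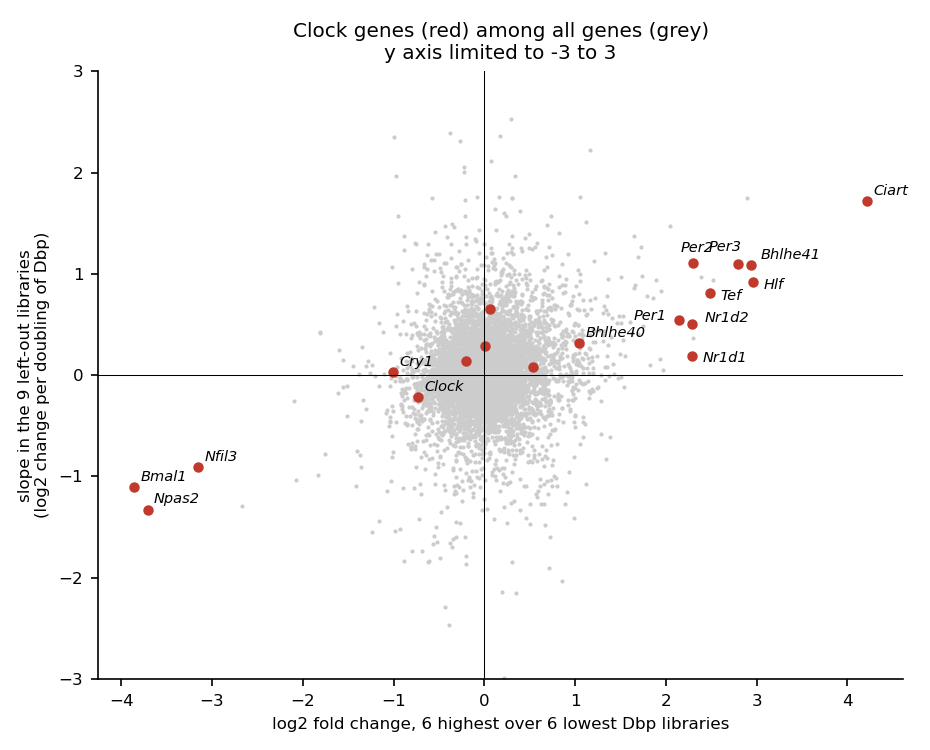
For each gene, the log2 fold change of the 6 highest over the 6 lowest Dbp libraries (x axis) and the slope on log2 Dbp in the 9 left-out libraries (y axis, log2 change per doubling of Dbp, limited to -3 to 3), clock genes in red and all other genes in grey. Ciart is at the upper right, and Bmal1, Npas2 and Nfil3 are at the lower left, while Cry1 and Clock lie near 0 on the y axis.

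Exact permutation tests over all 362880 pairings of the same 9 libraries, without the group term, covered 19 clock genes on log2 CPM. Pearson's r with Dbp had an exact two-sided p under 0.05 in 13 of them, 9 positive and 4 negative, where 2.53% and 2.18% of all genes had one, and Spearman's rho in 12. Nr1d2 had r = 0.978 (exact p = 2.48e-05) and rho = 0.967 (exact p = 0.000165). Tef had r = 0.963 (exact p = 4.41e-05) and rho = 0.967 (exact p = 0.000165). Npas2 had r = -0.945 (exact p = 0.000143) and rho = -0.983 (exact p = 4.96e-05). Bmal1 had r = -0.889 (exact p = 0.00161) and rho = -0.967 (exact p = 0.000165). Adjusted over all 16725 genes the smallest exact permutation p was 0.138, so none passed. S205A mutants 2 and 3 were the 2 libraries farthest from the median Dbp in log2 TMM CPM. Without them r was 0.965 for Nr1d2, 0.975 for Tef, -0.961 for Npas2 and -0.934 for Bmal1. For Nr1d1, r fell from 0.706 (exact p = 0.0377, rho = 0.367 with exact p = 0.336) to -0.0792. Leaving out S205A mutant 2 alone took r for Nr1d1 to 0.166, so its relation did not hold without that library. The 3 labelled groups have too few of the 9 libraries for a value within each, and the slopes with the group as a term take that place.

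Of the 100 genes that were higher with high Dbp without overlap, 79 (79%) had a slope above 0 in the 9 libraries, against 8511 of 16725 over all genes, and 25 (25%) an unadjusted edgeR p under 0.05 in that direction, where 1.59% of all genes had one. Of the 104 lower genes 103 could be tested; 73 (70.9%) had a slope below 0, against 8214 of 16725 over all genes, and 19 (18.4%) an unadjusted p under 0.05 in that direction, where 1.66% of all genes had one. In each set 1 gene had such a p in the opposite direction. Among the 25 were the clock genes Per1, Per2, Per3, Nr1d2, Ciart, Bhlhe41, Tef and Hlf, and among the 19 were Nfil3, Bmal1 and Npas2. These counts were not repeated with single libraries left out.

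Genes that cycle in many tissues differed with Dbp in part. Of 14 tested, 5 were higher and 2 lower with high Dbp without overlap, where 0.633% and 0.658% of all genes were. Wee1, the kinase that holds back mitosis, was at 7.95 to 32.7 CPM (median 17.4) against 4.27 to 7.03 CPM (median 5.18), a log2 fold change of 1.73, and its slope in the 9 libraries was 0.98 (SE 0.17, edgeR adjusted p 0.358). Usp2, a ubiquitin protease, was at 36.8 to 90.1 against 16.4 to 24.4 CPM (1.60), and it was the only one of 10 clock kinase and ubiquitin genes whose groups did not overlap. Tspan4, a tetraspanin, was at 70.01 to 93.4 against 25.4 to 37.4 CPM (1.32), with a slope of 0.44 (SE 0.12, edgeR adjusted p 0.9998). Coq10b was at 43.6 to 81.6 against 26.2 to 31.9 CPM (1.04), and Por, the electron donor of cytochromes P450, at 45.6 to 110.2 against 32.7 to 44.8 CPM (0.83), nearly touching. Their slopes were 0.22 (SE 0.11) and 0.16 (SE 0.13). Lonrf3 was at 0.165 to 2.87 against 3.45 to 5.46 CPM (-1.55) and Litaf at 48.8 to 60.4 against 69.3 to 97.9 CPM (-0.54), with slopes of -0.12 (SE 0.33) and -0.21 (SE 0.098). None of these 4 slopes had an unadjusted edgeR p under 0.05. Over the 14 genes that cycle in many tissues, 4 had such a p with a slope above 0 and 1 below, where 1.59% and 1.66% of all genes did. The count below was 3 without S205A control 1 and 2 without S205A control 2 or S205A mutant 2. Csnk1d and Csnk1e, the kinases that mark PER proteins for decay, overlapped, with log2 fold changes of 0.14 and 0.07.

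Outside these lists, several genes with a mean log2 CPM of at least 1 were lower with high Dbp without overlap. Adamts4, a protease of matrix proteoglycans, was at 0.302 to 1.86 against 2.48 to 8.22 CPM (-2.10), and Spon2, a secreted matrix protein, at 1.79 to 4.98 against 8.26 to 20.1 CPM (-1.76). Rasl11a was at 4.87 to 12.9 against 15.7 to 35.6 CPM (-1.83), and its slope in the 9 libraries was -0.98 (SE 0.13, edgeR adjusted p 0.107), the smallest adjusted value outside the clock. Leo1, a subunit of the PAF1 elongation complex, was at 5.87 to 13.9 against 21.96 to 28.1 CPM (-1.37), with a slope of -0.79 (SE 0.15, edgeR adjusted p 0.528). Dll1, a Notch ligand, was at 23.99 to 59.99 against 65.5 to 217 CPM (-1.51), and Foxs1, a forkhead factor of mural cells, at 14.3 to 32.2 against 46.7 to 59.3 CPM (-1.34). The slopes of Adamts4, Spon2, Dll1 and Foxs1 were -0.25 (SE 0.49), -0.77 (SE 0.45), -0.40 (SE 0.45) and -0.25 (SE 0.29), none with an unadjusted p under 0.05.

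Rasd2, a small GTPase, was higher without overlap, at 4.19 to 7.93 against 0.726 to 2.34 CPM (1.89), with a slope of 0.94 (SE 0.21, edgeR adjusted p 0.961). Tcap encodes the titin cap protein of striated muscle and was at 17.7 to 26.5 against 5.61 to 12.1 CPM (1.70), and its slope of 0.41 (SE 0.23) had no unadjusted edgeR p under 0.05. The next 4 genes, of vessel and metabolic function, were picked after their values were seen. Hspb7, a small heat shock protein of muscle, was at 226 to 410.2 against 90.2 to 184 CPM (1.34), and Pfkfb3, which drives glycolysis, at 72.4 to 138 against 34.9 to 55.3 CPM (1.26). Edn1, the endothelin precursor and a vasoconstrictor of endothelium, was lower, at 34.3 to 72.3 against 77.2 to 139 CPM (-1.05), and so was Grk5, a kinase that silences G-protein-coupled receptors, at 55.4 to 92.1 against 105 to 201 CPM (-0.88). In the 9 libraries their slopes were 0.64 (SE 0.20), 0.44 (SE 0.25), -0.50 (SE 0.45) and -0.25 (SE 0.19), and only that of Hspb7 had an unadjusted edgeR p under 0.05. The summed endothelial markers overlapped between the groups, at 4055 to 7031 CPM with high and 4941 to 12360 CPM with low Dbp, and their part in the Edn1 value was not tested.

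**Figure D4:**
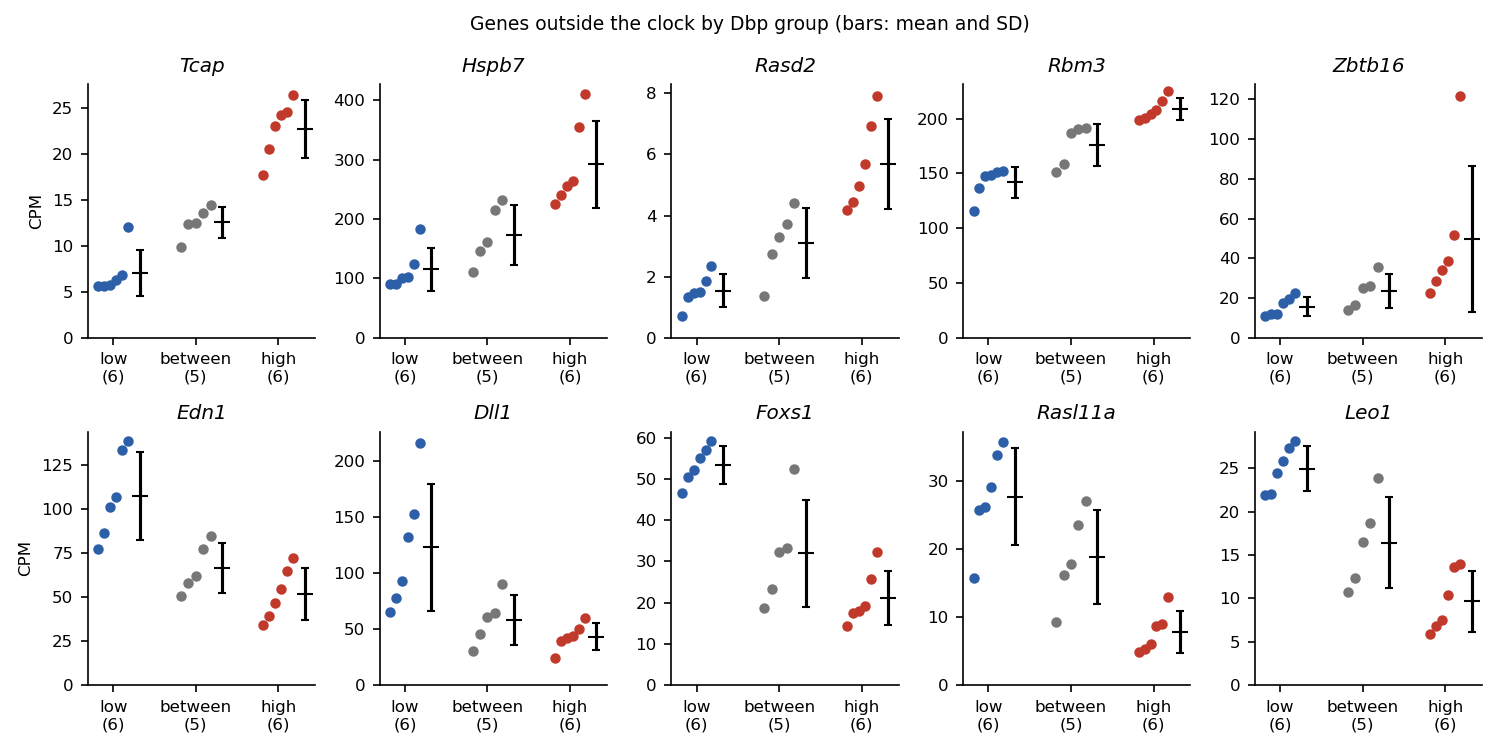
CPM of 10 genes outside the clock in the 6 low, 5 between and 6 high Dbp libraries, 1 point per library, with bars for the mean and SD. In Tcap, Hspb7, Rasd2, Rbm3, Zbtb16, Edn1, Dll1, Foxs1, Rasl11a and Leo1 the low and high groups do not overlap, as in Tcap with 5.61 to 12.1 and 17.7 to 26.5 CPM.

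The 17 contractile genes of smooth muscle that were tested had a median log2 fold change of 0.15 against 0.0027 for all genes. All 17 overlapped between the groups, as did 15603 of 15807 genes, so the count says nothing particular about them. In the 9 libraries 0 of 17 had an unadjusted edgeR p under 0.05 in either direction, where 3.25% of all genes did, and 1 of 17 without S205A control 1. Vasoactive receptors and regulators of tone had a median of 0.04 and overlapped in 22 of 22, again near the share over all genes. Avpr1a, a vasopressin receptor, came closest, at 7.997 to 22.2 against 21.2 to 51.04 CPM (-1.04), and its slope of -0.46 (SE 0.13) was the only one of the 22 with an unadjusted p under 0.05, where 3.25% of all genes had one, and without S205A control 2 there were 2. The 14 heat shock genes and 13 proliferation genes overlapped too, as nearly all genes did. Rbm3, a cold-inducible RNA-binding protein, was at 198.4 to 226 against 116 to 152 CPM (0.56), but its slope in the 9 libraries was -0.09 (SE 0.099), and Cirbp, the other member, overlapped (0.26).

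Glucocorticoid-responsive genes were higher with high Dbp on the median, 0.61 on the log2 scale, but of 13 only Zbtb16 (1 of 13, where 0.633% of all genes were higher in this way) had groups without overlap, at 22.8 to 122 against 10.8 to 22.4 CPM (1.66). Wild type 3 held the 122 CPM. Fkbp5, a co-chaperone of the receptor, was at 14.96 to 91.5 against 9.41 to 22.02 CPM (1.36), and Tsc22d3, which encodes GILZ, at 49.2 to 181 against 24.996 to 56.5 CPM (1.32). These folds were far smaller within the Y308F line, 0.35 for Fkbp5 and 0.34 for Tsc22d3, and 0.66 for Zbtb16. In the 9 libraries 5 of 13 had an unadjusted edgeR p under 0.05 with a slope above 0 and 2 of 13 below, where 1.59% and 1.66% of all genes did. The 5 were Fkbp5 (0.95, SE 0.22), Zbtb16 (0.89, SE 0.31), Tsc22d3 (0.68, SE 0.14), Mt1 (0.66, SE 0.17) and Map3k6 (0.51, SE 0.15). The 2 were Dusp1 (-0.47, SE 0.14) and Errfi1 (-0.46, SE 0.19). Without S205A mutant 2 the counts were 3 above and 0 below, and with each of the 9 left out in turn the count below ran from 0 (also without S205A mutant 4) to 2.

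Immediate early genes, which respond to stimulation within minutes, had a log2 fold change below 0 in 18 of 23, against 7810 of 15807 over all genes, with a median of -0.37. The groups overlapped in 21 of 23, and 1 gene was higher and 1 lower without overlap, where 0.633% and 0.658% of all genes were. Fos was at 6.74 to 83.1 CPM against 19.5 to 461 CPM (-2.07) and Nr4a1 at 42.6 to 114 against 94.2 to 389.9 CPM (-1.36), both with overlap. Btg2 was lower without overlap, at 60.3 to 79.8 against 88.2 to 213 CPM (-0.76), and Ier3 higher, at 26.9 to 36.9 against 8.49 to 19.5 CPM (0.93). In the 9 libraries 20 of 23 slopes were below 0, against 8214 of 16725 over all genes, and 9 had an unadjusted edgeR p under 0.05, where 1.66% of all genes did. Jund (-0.44, SE 0.089), Nr4a1 (-0.91, SE 0.20) and Btg2 (-0.72, SE 0.17) were among them. S205A mutant 2, the library with the least Dbp of the 9, held the highest level of 15 of the 23 genes, as in Fos (1122 CPM, next 648 CPM) and Nr4a1 (720.0 CPM, next 334 CPM). Without it 16 of 23 slopes were below 0 and 3 had such a p, where 0.945% of all genes did. Without S205A mutant 4 the count was 4, where 1.39% of all genes did.

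Genes of cholesterol synthesis and uptake had a median log2 fold change of -0.27, and 14 of 14 overlapped, as did 15603 of 15807 over all genes. In the 9 libraries 13 of 14 slopes were below 0, against 8214 of 16725 over all genes, and 4 had an unadjusted edgeR p under 0.05, where 1.66% of all genes did in that direction. Among them were Srebf2, the master regulator (-0.37, SE 0.095), Idi1 (-0.58, SE 0.13) and Fdps (-0.29, SE 0.11). Without S205A mutant 2, which held the highest level of 6 of the 14 genes, 11 of 14 slopes were below 0 and 2 had such a p, and without Y198F mutant 3 also 2.

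Markers of other cells were read beside these results. As in nearly all genes, the groups overlapped in each list. All 11 adipocyte genes had a log2 fold change above 0, median 1.10, and their summed level was 801.7 to 5287 CPM with high and 1005 to 2024 CPM with low Dbp, and Adipoq alone ranged from 8.78 to 265 CPM in the high group. None of the 11 had an unadjusted edgeR p under 0.05 in the 9 libraries, where the median slope was 0.17. These slopes changed with single libraries left out: without S205A mutant 4 the median was 1.52 and 3 of 11 had such a p with a slope above 0, where 2.61% of all genes did, and without Y198F mutant 3, which held the highest level of 10 of the 11, the median was -0.88. Macrophage genes had 0 of 9 with such a p. Without S205A mutant 4 all 9 macrophage slopes were above 0 and 5 had such a p, where 2.61% of all genes did. Without Y198F mutant 3 all 9 were below 0. Log2 fold changes were below 0 in 12 of 12 fibroblast and matrix genes, median -0.17, and in 10 of 13 endothelial genes, median -0.34, against 7810 of 15807 over all genes. In the left-out libraries, by contrast, 10 of 12 fibroblast slopes (3 of 12 without S205A mutant 2) and 7 of 13 endothelial slopes (2 of 13 without S205A control 1) were above 0. Schwann cell and myelin genes had log2 fold changes above 0 in 9 of 9, median 0.37, while in the 9 libraries 8 of 9 slopes were below 0 and 3 of 9 had an unadjusted edgeR p under 0.05, where 1.66% of all genes did. Mbp, a myelin protein gene, had a slope of -0.68 (SE 0.20). Without S205A mutant 2 all 9 Schwann cell slopes were below 0 and 1 had such a p, and without S205A mutant 4 there were 6 and 1. Lymphoid genes overlapped in 7 of 7 tested, median -0.31, with a summed level of 3.31 to 32.4 CPM with high and 7.11 to 33.6 CPM with low Dbp. Lymphoid slopes in the 9 libraries were below 0 in 8 of 8, median -0.92, and 1 had an unadjusted edgeR p under 0.05. Y198F mutant 1 held the highest level of all 8, and without it 7 of 8 slopes were below 0, median -0.20, and 0 had such a p. That count ran from 0 to 3 (without S205A control 1) with each library left out. The part of these cells in the differences outside the clock was not tested.

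**Figure D5:**
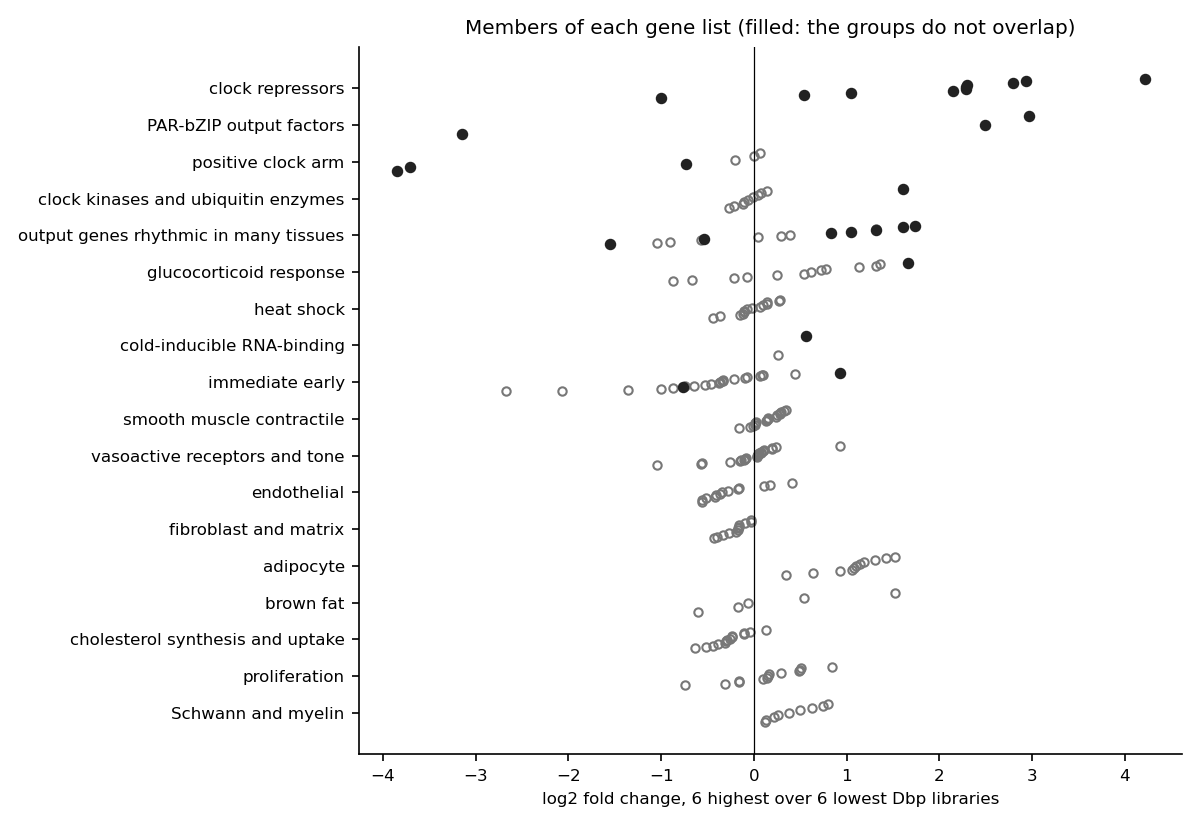
Log2 fold change of the 6 highest over the 6 lowest Dbp libraries for the members of 18 gene lists, 1 point per gene, filled where the groups do not overlap. The filled points beyond 2 on either side all belong to the clock repressors, output factors and positive arm, and the smooth muscle, endothelial, fibroblast and adipocyte lists hold none.

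Over the 17 libraries the genes most like Dbp by Spearman's rho were Per3 (0.988), Bmal1 (-0.980), Tef (0.966), Nr1d2 (0.961), Npas2 (-0.939), Nfil3 (-0.936), Leo1 (-0.934), Hlf (0.929), Tcap (0.929) and Car11 (0.929), given as a description over the libraries that chose the groups. Car11, a carbonic anhydrase relative, lies on chromosome 7 from 45349212 to 45354362 and ends 149 bases before Dbp on the same strand. It was at 16.9 to 27.1 against 7.36 to 13.6 CPM (0.86) and its fold was much smaller than that of Dbp.

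Line and Dbp group were not balanced, so the Y308F line, with 3 libraries in each group, is the one line that shows both. Its high libraries were mutant 1 and controls 2 and 3, and its low ones control 1 and mutants 2 and 3. Genotype was thus not balanced there either, and these libraries too were chosen by their Dbp. In that line the groups lacked overlap in 2698 of the 15807 genes (17.1%), a share that 3 against 3 libraries reach far more easily. Within it the log2 fold change was 3.45 for Nr1d1, 3.22 for Nr1d2, -3.73 for Bmal1, -3.84 for Npas2, -3.83 for Nfil3, 2.51 for Tef and 2.89 for Per3. For the genes outside the clock it was -1.93 for Dll1, 1.71 for Tcap, -0.99 for Edn1 and 1.40 for Hspb7. With the labelled group as a term over the 17 libraries, the change per doubling of Dbp was -0.75 for Bmal1, 0.79 for Ciart, 0.53 for Per3 and -0.18 for Edn1.

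Panx1, the gene the study altered, overlapped between the groups. It was at 0.581 to 4.78 CPM in the high group, which holds a knockout library, and at 2.78 to 4.72 CPM in the low group, with a log2 fold change of -0.32, and its slope in the 9 libraries was -0.02 (SE 0.46).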

How the data were processed

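Per the labels' protocols, poly(A) RNA was sequenced from both ends with reads of 150 bases, mapped by the authors with STAR 2.7.9a to GRCm39 and counted with featureCounts (Rsubread 2.20.0). The deposited table holds whole-number counts per gene, not normalized. Of 57010 gene identifiers, 56310 matched GENCODE vM39 on GRCm39, and the others held 0.0433% of counts. The annotation used for counting and its strand setting are not given in the sources used here.

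The fits used edgeR 4.0.16 in R 4.3.3 with TMM normalization, the filterByExpr filter and a prior count of 2 for log2 CPM. Log2 fold changes of high over low Dbp came from the quasi-likelihood fit of the 12 libraries. Slopes on log2 Dbp in the 9 libraries had the labelled group as a term, with Benjamini-Hochberg adjustment over all genes tested. Exact correlation p-values were planned to be adjusted over the clock genes and were instead adjusted over all genes. Scripts were tested on simulated data.

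The members, gene lists and tests were chosen with earlier results of these data known, and the lists are therefore no independent evidence. Some genes of the lists and overlaps are counted but not reported here by name. Otherwise, named genes were every tested member of the 3 clock lists, the 10 largest folds per direction without overlap at a mean log2 CPM of at least 1, up to 4 members of each other list without overlap, and the 10 genes most like Dbp. Fkbp5, Tsc22d3, Nr4a1, Jund, Fos, Avpr1a, Srebf2, Idi1, Litaf, Coq10b, Por, Adipoq and Panx1, the other genes named with a slope from a list, and Hspb7, Pfkfb3, Edn1 and Grk5 were added after their values were seen. Lymphoid, macrophage, erythroid, neuronal, mesothelial, brown fat, pancreatic acinar and intestinal epithelium lists had 0 genes without overlap. Sequences were read from GRCm39. The authors' 4 comparison tables and normalized table were not used here. Alternatives were DESeq2 1.42.0, limma voom (limma 3.58.1), DESeq2 size factors, no filter, other group sizes, 1 line alone, a replicate block and each library left out.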

Additional observations from a re-analysis of the deposited data

Results flagged for a closer look

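Within the groups of 6, the highest or lowest library was set against its nearest neighbour for 110 pairs of a named gene and a group, and in 12 of them the gap was wider than Dixon's 95% limit. Chance gives about 1 in 20, but many of these genes were named for their size or after their values were seen, so the count is a description. Wild type 3, the library with the most Dbp, stood high in Zbtb16 (122 CPM, next 51.6), Fkbp5 (91.5 CPM, next 36.6) and Por (110.2 CPM, next 69.2). Wild type 2, with the least Dbp of the high group, held 5.38 CPM of Nfil3 where the next held 1.96. Y308F mutant 1 held 36.9 CPM of Ier3 (next 30.6).

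In the low group Y308F control 1 stood apart in 3 genes: Npas2 was at 53.3 CPM (next 42.7), Fkbp5 at 22.0 CPM (next 13.8) and Ier3, here the lowest, at 8.49 CPM (next 15.9). Y198F control 1 was high in Btg2 (213 CPM, next 114) and in Nr4a1 (390 CPM, next 204), both immediate early genes. Y198F control 2, with the most Dbp of the low group, was high in Tcap (12.1 CPM, next 6.86) and in Hspb7 (184 CPM, next 124).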

How the results depend on the processing

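The count of genes whose high and low Dbp groups do not overlap was 204. It was 207 with DESeq2 size factors, 230 without the filter and 204 with Dbp ranked by TMM-normalized CPM, which chose the same libraries. Fewer libraries separate more easily: the count was 507 for 5 against 5, 951 for 4 against 4 and 2727 for the Y308F line alone, refitted with its own filter, and ran from 233 to 368 with each library left out (365 without Panx1 knockout 1, 368 without Y198F control 2). Of 54 folds of named genes 53 kept their sign over 19 settings; Bmal2, whose fold was near 0, turned in 7 of them, down to -0.08. Of 1026 values 14 moved by over 1 SD. The wild-type and knockout line has no low library and was not run alone.

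The count of genes past an adjusted p of 0.05 in the 9 libraries was 0. It was 29 with DESeq2, 9 without the filter, 11 without the group term, 0 with limma voom and with DESeq2 size factors, and from 0 to 4 with each library left out (4 without S205A control 1, 1 without S205A mutant 4 or Y198F mutant 2). Replicate numbers did not pair the samples, since same-number correlations ran from -0.0746 to 0.139. With the replicate block 0 genes passed, 143 at an unadjusted p under 0.05, and 7 slopes of named clock genes turned: Per1 -0.0691, Cry1 -1.75, Cry2 -0.14, Nfil3 0.20, Bmal1 1.14, Clock 0.47 and Npas2 0.20. S205A mutant 4 is the only one of the 9 with its replicate number, so the block fits it exactly. The block thus leaves few libraries to estimate a slope. The cause of the turned slopes was not tested. With each library left out the slope of Cry1 ran from -0.0749 to 0.25 and that of Cry2 from -0.0173 to 0.14. The count of 13 correlated clock genes was 12 on CPM of total counts and 10 to 13 with each library left out. The 9 libraries span only the upper part of the Dbp range, which limits what their slopes can show.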
